A study of Rattus norvegicus with 6 samples.

Results

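The immediate early genes described here, 10 in all, were followed in spinal cord tissue of sham rats and of rats with NP after SNI (neuropathic pain after spared nerve injury). They are *Fos*, *Fosb*, *Junb*, *Egr1*, *Egr3*, *Arc*, *Nr4a1*, *Ier2*, *Dusp1* and *Ptgs2*. The genes were taken by symbol from the deposited expression table, and 9 of the 10 symbols were found among its 22050 genes. The expression of *Ier2* was not analysed here. In the SNI model as it is usually made, branches of the sciatic nerve are injured while the sural branch is spared, and sham-operated rats were the controls. The animals were healthy young adult male Sprague–Dawley rats, and total RNA of the tissue was sequenced as 3 sham libraries and 3 SNI-NP libraries. The time after surgery, the time of day of sampling and the side and segment of cord used for sequencing are not given in the sources used here, and nothing in the labels says whether rats were pooled. P-values therefore measure the spread between these libraries.

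Immediate early genes are transcribed within minutes of a stimulus, without the need for new protein, and their transcripts are short-lived. Calcium entry and the MAP kinase cascade act on factors that are already present, mainly SRF with its partners at the serum response element and CREB at the cyclic AMP response element (CRE). In the dorsal horn, induction of *Fos* is widely used as a marker of neurons that were recently activated by noxious input. The products include AP-1 transcription factors (*Fos*, *Fosb*, *Junb*), zinc finger and nuclear receptor factors (*Egr1*, *Egr3*, *Nr4a1*), and effectors (*Arc*, *Dusp1*, *Ptgs2*).

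Promoter windows from RefSeq (build GRCr8, 250 bases before to 50 bases after the annotated start) were matched by symbol for 7 of the 10 genes. *Fos*, *Egr3* and *Arc* had no matched window and are missing from the counts below. The windows of *Ptgs2* and *Junb* are shown because these genes had the clearest separation of the 2 groups in each direction. Those of *Nr4a1* and *Dusp1* are shown because these genes had the highest levels and carry CRE letters. Capitals mark the core of the CRE (TGACG), the full CRE (TGACGTCA, which contains the core on both strands), the E-box (CACGTG) and the TATA motif (TATAAA), on either strand.
*Ptgs2*, chr13:64713813-64714112, + strand: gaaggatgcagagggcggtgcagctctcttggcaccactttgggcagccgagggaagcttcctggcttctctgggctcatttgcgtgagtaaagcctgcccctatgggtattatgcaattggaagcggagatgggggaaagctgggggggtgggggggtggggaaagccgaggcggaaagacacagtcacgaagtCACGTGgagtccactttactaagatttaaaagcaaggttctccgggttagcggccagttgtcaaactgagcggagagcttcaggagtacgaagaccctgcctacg
*Junb*, chr19:40080876-40081175, + strand: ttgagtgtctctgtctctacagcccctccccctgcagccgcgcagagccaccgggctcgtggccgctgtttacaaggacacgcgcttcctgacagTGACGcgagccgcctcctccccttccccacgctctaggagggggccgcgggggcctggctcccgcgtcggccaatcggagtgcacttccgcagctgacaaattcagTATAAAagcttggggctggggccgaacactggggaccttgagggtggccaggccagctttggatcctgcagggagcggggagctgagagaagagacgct
*Nr4a1*, chr7:134259888-134260187, + strand: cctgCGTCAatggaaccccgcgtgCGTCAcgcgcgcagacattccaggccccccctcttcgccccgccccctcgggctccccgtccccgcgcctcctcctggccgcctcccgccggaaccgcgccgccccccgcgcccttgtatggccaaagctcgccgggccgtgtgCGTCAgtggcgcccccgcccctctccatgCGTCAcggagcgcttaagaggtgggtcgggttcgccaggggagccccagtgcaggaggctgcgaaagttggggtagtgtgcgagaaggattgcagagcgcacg
*Dusp1*, chr10:17184603-17184902, + strand: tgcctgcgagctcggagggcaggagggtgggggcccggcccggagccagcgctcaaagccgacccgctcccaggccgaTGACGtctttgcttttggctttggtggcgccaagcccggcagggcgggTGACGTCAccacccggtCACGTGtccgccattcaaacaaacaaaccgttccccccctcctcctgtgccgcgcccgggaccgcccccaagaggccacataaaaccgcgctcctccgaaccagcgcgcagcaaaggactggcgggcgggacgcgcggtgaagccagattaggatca

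The *Nr4a1* window held 4 CRE cores, the nearest 53 bases before the start. That of *Dusp1* held 3, of which 2 form the full CRE that begins 124 bases before the start, and an E-box lies at 107 bases. *Junb* had 1 CRE core at 155 bases and a TATA motif at 49 bases. The *Ptgs2* window had an E-box at 55 bases and no CRE core. Over the 7 windows, 5 held the CRE core (*Dusp1*, *Egr1*, *Ier2*, *Junb* and *Nr4a1*), against 21.2% of all 33469 promoter windows of the same length. The full CRE was found in 2 of 7 (*Dusp1* and *Ier2*), against 1.83% of all windows, and the CArG box, the core of the serum response element, in 1 of 7 (*Egr1*), against 1.64%. The E-box was found in 2 of 7, against 6.42% of all, the TATA motif in 2 of 7, against 14.2%, and the AP-1 motif (TGANTCA) in 0 of 7, against 7.33%. These matches describe letters within the windows and were not tested as binding sites.

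The libraries held between 16670760 and 18151156 estimated counts. Levels are given as CPM, counts scaled to a common library total with TMM factors. Groups were compared by edgeR's quasi-likelihood test over 14426 genes with Benjamini-Hochberg adjustment, and all 9 genes were tested. A library with 0 counts of a gene would allow a level of up to 0.167 to 0.180 CPM, a limit for counting error only, and each of the 9 genes had counts in all 6 libraries.

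Of the marker genes listed, *Pecam1*, *Col1a2*, *Myh2* and *Hspa1a* were not analysed here. The others had counts in every library, except that the motor neuron gene *Mnx1* was at 0 counts in 1. The summed level of 8 dorsal root ganglion neuron genes was 496.1 to 1058 CPM in sham rats and 114.1 to 1334 in SNI-NP rats. The lowest value was in SNI-NP replicate 1. Of the 8 genes, 1 had an unadjusted p under 0.05 by edgeR (lower), against 5.94% of all genes tested. This was *Scn9a* (log2 fold change -1.33, SE 0.38, adjusted p = 0.389 by edgeR and 0.031 by the alternative test DESeq2). Of 8 neuronal genes 2 were lower at an unadjusted p under 0.05 by edgeR, against the same 5.94% of all genes. *Slc17a6* had -0.77 (SE 0.16, adjusted p = 0.3075 by edgeR and 0.00543 by DESeq2), without overlap of the groups. *Snap25* had -0.65 (SE 0.23, adjusted p = 0.436 by edgeR and 0.169 by DESeq2). The sums of the 8 neuronal genes were 881.7 to 1220 and 640.7 to 1193 CPM, the lowest again in SNI-NP replicate 1. *Stmn2* was the largest part of that sum, with 254.4 CPM in this library and 831.0 and 641.7 in SNI-NP replicates 2 and 3. Genes of erythroid cells (3 of 4), B cells (3 of 4), neutrophils (1 of 6) and meninges and fibroblasts (1 of 4) were higher. The level was again an unadjusted p under 0.05 by edgeR. The share over all genes was 4.91%, the lists were short, and none was tested as a set. The B cell sums did not overlap, with 4.02 to 7.22 CPM in sham and 10.7 to 13.9 in SNI-NP rats. The sums were 493.7 to 1197 and 1090 to 2615 CPM for the erythroid genes, and 31.4 to 111.8 and 82.8 to 167.8 for the neutrophil genes. None of the tested genes of motor neurons, microglia, astrocytes, oligodendrocytes, endothelium, skeletal muscle or heat shock had an unadjusted p under 0.05. The part of these cell types in the results below was not tested, and in bulk tissue fewer cells of a type and less RNA per cell cannot be told apart.

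None of the immediate early genes separated the groups at the adjusted threshold, and the largest difference was a lower level of *Ptgs2* in SNI-NP rats. Of the 9 genes, 0 had an adjusted p under 0.05 by edgeR, and 0% of all 14426 genes did, while 1565 genes had an unadjusted p under 0.05 and DESeq2 called 211. At an unadjusted p under 0.05, 1 of the 9 was lower in SNI-NP rats (*Ptgs2*), against 5.94% of all genes, and 0 of the 9 were higher, against 4.91% of all. By DESeq2, 0 of the 9 genes had an adjusted p under 0.05 (smallest 0.191), against 1.55% of the genes with an adjusted value. The fitted log2 fold change (SNI-NP over sham) was negative for 7 genes and positive for 2, with a median of -0.16 over the 9 and of 0.0057 over all genes tested. In 2 of the 9 genes every SNI-NP library lay below every sham library, against 8.15% of all genes, and in 1 of the 9 every SNI-NP library lay above, against 10.4%. With 3 libraries against 3, an exact two-sided permutation test cannot give a p below 0.1.

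**Figure D1:**
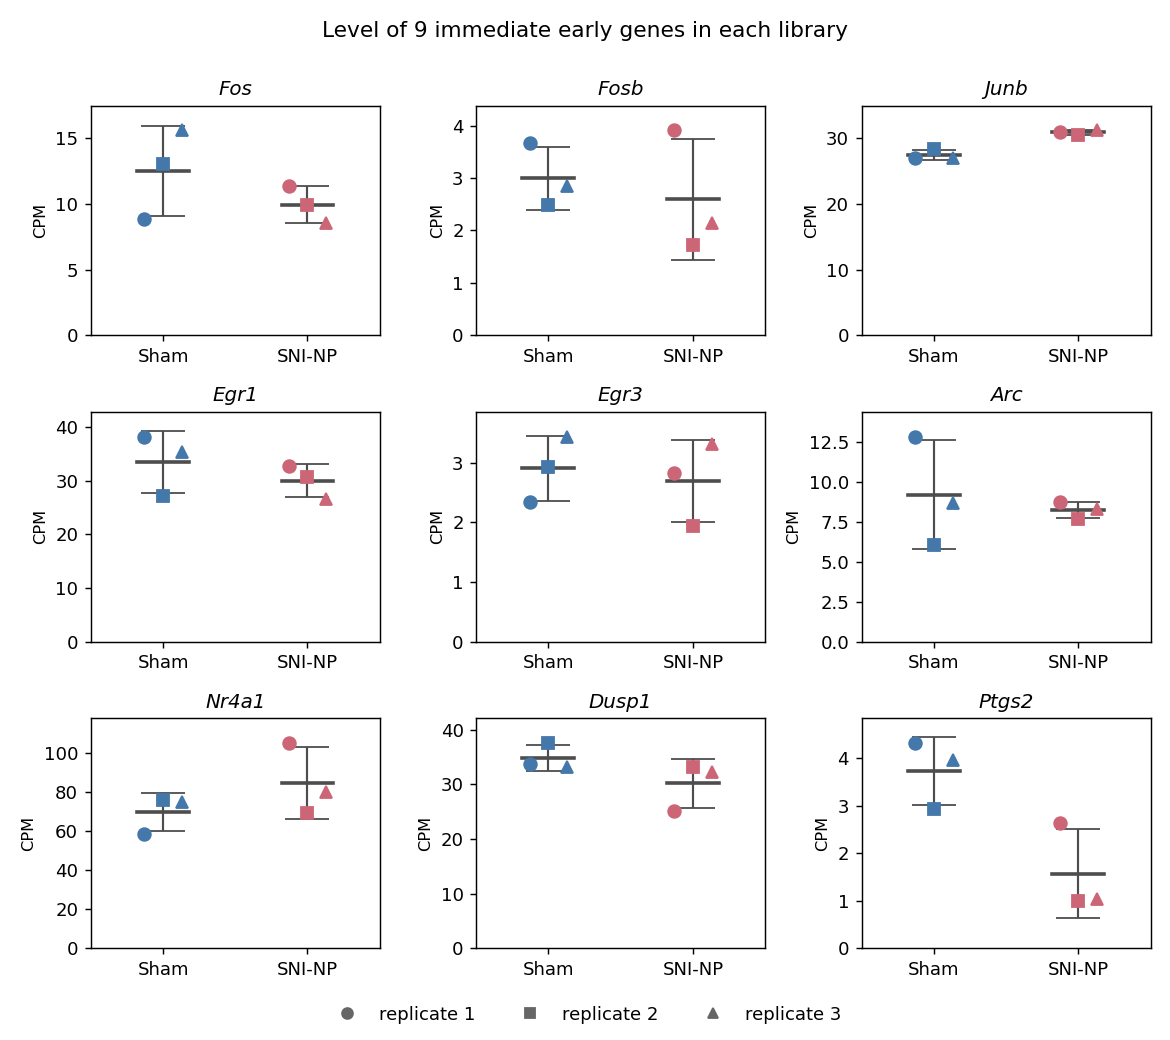
Level in CPM (vertical axis, from 0) of the 9 genes in sham (blue) and SNI-NP (red) libraries, with a marker shape for each replicate, the group mean (thick bar) and its SD (error bar, n = 3). The *Ptgs2* panel shows SNI-NP replicates 2 and 3 near 1 CPM and all sham libraries above 2.9, whereas in most other panels the groups overlap.

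*Ptgs2* (ENSRNOG00000002525) encodes the inducible cyclooxygenase, which makes the precursor of the prostaglandins and is a target of anti-inflammatory analgesics. The sham libraries held 4.32, 2.93 and 3.96 CPM, from 72, 52 and 68 counts. The SNI-NP libraries held 2.65, 0.9996 and 1.04 CPM, from 46, 18 and 18 counts. All SNI-NP libraries lay below all sham libraries, but replicate 1 of the SNI-NP group was 0.284 CPM below the lowest sham library and far above the other 2 of its group. Means and SDs of the 3 libraries were 3.74 ± 0.722 CPM for sham and 1.56 ± 0.938 for SNI-NP, and the fitted level was 2.39-fold lower after SNI. On the log2 scale the difference was -1.25 (standard error, SE, 0.43, 95% interval -2.26 to -0.25), with an unadjusted p of 0.0211 and an adjusted p of 0.436 from edgeR. DESeq2 gave -1.27 with an adjusted p of 0.191. The exact permutation p was 0.1, the smallest that this design allows.

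The size of the *Ptgs2* difference depended on single libraries. Without SNI-NP replicate 1 the log2 fold change was -1.86 and the adjusted p by edgeR 0.0534, in a fit in which 1.52% of all genes had an adjusted p under 0.05. The unadjusted p by edgeR was 0.0551 without Sham replicate 1 (log2 fold change -1.16). Leaving out SNI-NP replicate 2 gave 0.0617 (-1.01), and leaving out SNI-NP replicate 3 gave 0.0573 (-1.07). The direction was the same in these 6 fits and in the 11 other settings. The gene was of low abundance, above 13.2% of the genes tested, so that counting alone would give a coefficient of variation of 19.1% in SNI-NP rats, against a measured 60.0%. SNI-NP replicate 1 had the highest *Ptgs2* level of its group. It also had the lowest summed level of ganglion neuron and neuronal genes. The neuronal genes were split, however. Within its group this library was the lowest for *Rbfox3*, *Syt1*, *Stmn2* and *Slc17a6*, and the highest for *Snap25*, *Gad1*, *Gad2* and *Slc32a1*. For *Slc17a6* the SNI-NP libraries were close together, at 25.3, 26.8 and 27.0 CPM, and all lay below the sham libraries. The part of these cell types in the result was not tested.

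Of 11 other genes of the prostaglandin pathway, 10 were tested. An unadjusted p under 0.05 was found for 0 of the 10 in either direction, against 5.94% (lower) and 4.91% (higher) of all genes, so that a count of 0 is near the background, with a median log2 fold change of 0.092. *Ptgs1*, the constitutive cyclooxygenase, held 6.68 ± 1.01 CPM in the sham and 6.88 ± 1.29 CPM in the SNI-NP group (SD, 3 libraries each), for a log2 difference of 0.042 (95% interval -0.47 to 0.55). Whether the difference of *Ptgs2* differs from that of *Ptgs1* was not tested. *Ptges*, which encodes the inducible prostaglandin E synthase, had a log2 difference of 0.39 (SE 0.21, edgeR unadjusted p = 0.0971), and its groups did not overlap. *Ptges3*, a cytosolic form and co-chaperone with a count that was not whole in Sham replicate 2, had -0.25 (SE 0.14). The prostaglandin E receptors *Ptger3* and *Ptger1* had 0.88 (SE 0.54) and 0.39 (SE 0.25).

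Among the AP-1 genes, *Fos* (ENSRNOG00000008015) was at 8.82, 13.01 and 15.6 CPM in the sham libraries. The SNI-NP libraries held 11.4, 9.89 and 8.58 CPM. The lowest sham library lay within the SNI-NP range. Group means were 12.5 ± 3.42 CPM (sham) and 9.95 ± 1.41 CPM (SNI-NP; SD over 3 libraries), a log2 difference of -0.33 (95% interval -0.88 to 0.22, edgeR adjusted p = 0.613). *Fosb* (ENSRNOG00000046667), a close relative that also dimerizes with Jun proteins, was at 3.66, 2.48 and 2.85 CPM in sham and 3.91, 1.72 and 2.14 in SNI-NP rats. The highest and the lowest values were both in the SNI-NP group, and the log2 fold change of -0.21 had a 95% interval from -1.06 to 0.65 (edgeR adjusted p = 0.851). The value of *Fos* depended on single sham libraries. Without Sham replicate 1 the log2 fold change was -0.54, with an unadjusted p of 0.0283 and an adjusted p of 0.777 by edgeR. Without Sham replicate 3 it was -0.17, with an unadjusted p of 0.524 by edgeR.

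*Junb* (ENSRNOG00000042838), a Jun protein that pairs with Fos proteins in AP-1, was the steadiest of the genes. Its level was 27.1, 28.3 and 27.0 CPM in sham rats and 31.0, 30.5 and 31.2 in SNI-NP rats, so the groups did not overlap. The log2 fold change was small, at 0.17 (SE 0.099, 95% interval -0.061 to 0.40), with an adjusted p of 0.541 from edgeR and an exact permutation p of 0.1. Leave-one-out fits gave 0.13 to 0.20. The coefficient of variation was 2.72% in sham and 1.15% in SNI-NP rats, below the 4.60% and 4.29% that counting alone would give.

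The zinc finger factors *Egr1* and *Egr3* did not separate the groups. *Egr1* (ENSRNOG00000019422), which is induced by growth factors and synaptic activity, was at 38.2, 27.1 and 35.5 CPM in sham and 32.8, 30.8 and 26.6 in SNI-NP rats, a log2 difference of -0.16 (95% interval -0.53 to 0.21). *Egr3* (ENSRNOG00000017828) was at 2.34, 2.93 and 3.43 CPM in sham and 2.82, 1.94 and 3.30 in SNI-NP rats, a log2 difference of -0.11 (95% interval -0.81 to 0.585). Without Sham replicate 1 the value of *Egr1* was -0.072, and without Sham replicate 2 it was -0.29 (edgeR unadjusted p = 0.0655). Both intervals contain 0, and that of *Egr3*, with 35 to 59 counts per library, is the wider. The edgeR adjusted p was 0.715 for *Egr1* and 0.910 for *Egr3*.

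*Nr4a1* (ENSRNOG00000007607), which encodes the orphan nuclear receptor also called Nur77, had the highest level. It was at 58.7, 75.9 and 75.0 CPM in sham rats and 105.3, 69.1 and 79.9 in SNI-NP rats. SNI-NP replicate 1 stood above all other libraries, while replicate 2 lay inside the sham range and replicate 3 just above it. The log2 fold change was 0.28 (95% interval -0.14 to 0.70, edgeR adjusted p = 0.569), and 0.094 without SNI-NP replicate 1.

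*Arc* (ENSRNOG00000043465) encodes a cytoskeleton-associated protein of synapses whose transcript moves into dendrites. It was at 12.9, 6.08 and 8.67 CPM in sham and 8.74, 7.72 and 8.29 in SNI-NP rats, so the SNI-NP values lay inside the sham range. The coefficient of variation was 37.1% in sham rats, against 7.98% from counting alone, and 6.21% in SNI-NP rats, against 8.31%. The log2 fold change was -0.16 (95% interval -0.80 to 0.48, edgeR adjusted p = 0.851), and it was 0.15 without Sham replicate 1.

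*Dusp1* (ENSRNOG00000003977) encodes a nuclear phosphatase that switches off MAP kinases, and glucocorticoids also induce it. It was at 33.7, 37.6 and 33.2 CPM in sham and 25.1, 33.1 and 32.3 in SNI-NP rats. The groups were separate by 0.0228 CPM only, between Sham replicate 3 and SNI-NP replicate 2, while SNI-NP replicate 1 was the lowest library. The log2 fold change was -0.21 (SE 0.14, 95% interval -0.53 to 0.12, edgeR adjusted p = 0.593), and -0.088 without that library. Beside it, 2 of 6 glucocorticoid-responsive genes had a lower level at an unadjusted p under 0.05, against 5.94% of all genes, with summed levels of 365.2 to 568.8 CPM in sham and 340.2 to 406.5 in SNI-NP rats. These were *Zbtb16* (log2 fold change -1.54, SE 0.33, adjusted p = 0.307 by edgeR and 0.0135 by DESeq2) and *Tsc22d3* (-0.52, SE 0.16, adjusted p = 0.409 by edgeR and 0.12 by DESeq2). None of the others in this list passed that level in either direction. Among them, *Sgk1* had -0.17 (SE 0.26) and *Per1* had 0.14 (SE 0.40), and both are also in the wider list below. The relation of these genes to *Dusp1* was not tested.

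**Figure D2:**
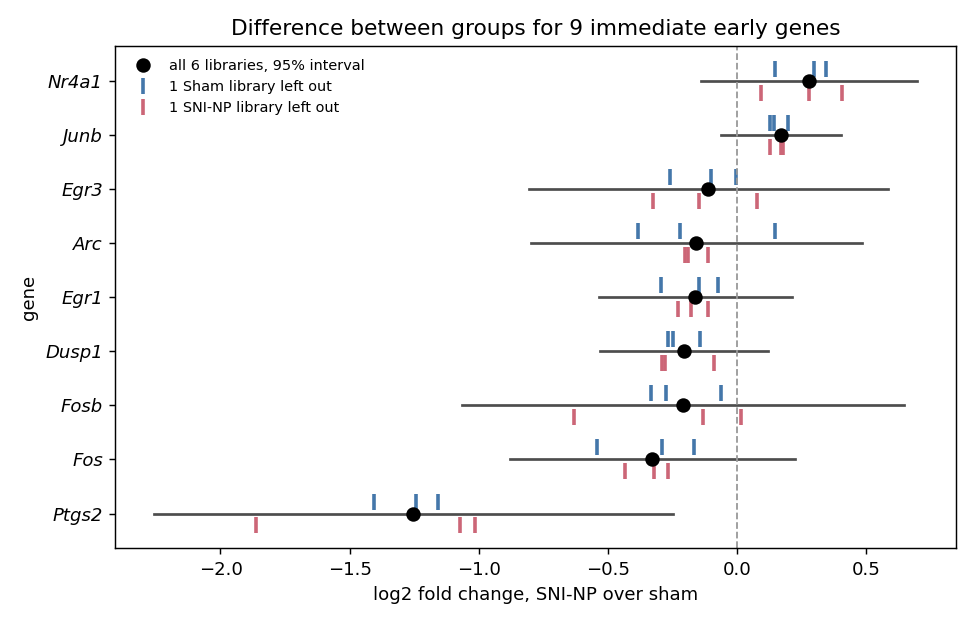
Log2 fold change of SNI-NP over sham (horizontal axis) for the 9 genes, with the edgeR estimate from all libraries (black point), its 95% interval (line) and the estimates after leaving out 1 sham (blue) or 1 SNI-NP (red) library. Only the *Ptgs2* interval, -2.26 to -0.25, lies wholly on one side of 0.

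Per length of the gene, the order of levels over the 6 libraries began with *Nr4a1* at a mean of 31.2 ± 5.61 FPKM (SD, n = 6 libraries). *Dusp1* (16.8 FPKM) and *Junb* (16.4 FPKM) followed, and each was the higher of the 2 in 3 of 6 libraries. *Dusp1* was the higher in the 3 sham libraries. *Junb* was the higher in the 3 SNI-NP libraries, in replicate 2 by 17.27 against 17.26 FPKM only. Whether this order differs between the groups was not tested. *Egr1* was at 10.2 FPKM and *Fos* at 7.07 FPKM, with *Egr1* higher in 6 of 6 libraries although their ranges overlapped. *Arc* (2.89 FPKM), *Egr3* (1.71 FPKM), *Fosb* (0.827 FPKM) and *Ptgs2* (0.608 FPKM) completed the order. The ranges of *Arc* and *Egr3* overlapped, and *Fosb* was above *Ptgs2* in 5 of 6 libraries. The level of *Nr4a1* was 1.85 times that of *Dusp1* on this scale, without overlap.

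The genes did not move as 1 group across the libraries. No library was the highest for more than 3 of the 9 genes. Sham replicate 1 was the highest for *Arc*, *Egr1* and *Ptgs2*, while its *Nr4a1* level was the lowest of all libraries and its *Fos* and *Egr3* levels were the lowest of the sham group. Sham replicate 3 was the highest for *Fos* and *Egr3*. SNI-NP replicate 1 was the highest for *Nr4a1* and *Fosb* and the lowest for *Dusp1*. SNI-NP replicate 2 was the lowest for *Fosb*, *Egr3* and *Ptgs2*. The summed level of the 9 genes was 189.7, 196.3 and 205.1 CPM in sham and 223.7, 185.9 and 193.5 in SNI-NP rats, a sum to which *Nr4a1* contributes most.

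**Figure D3:**
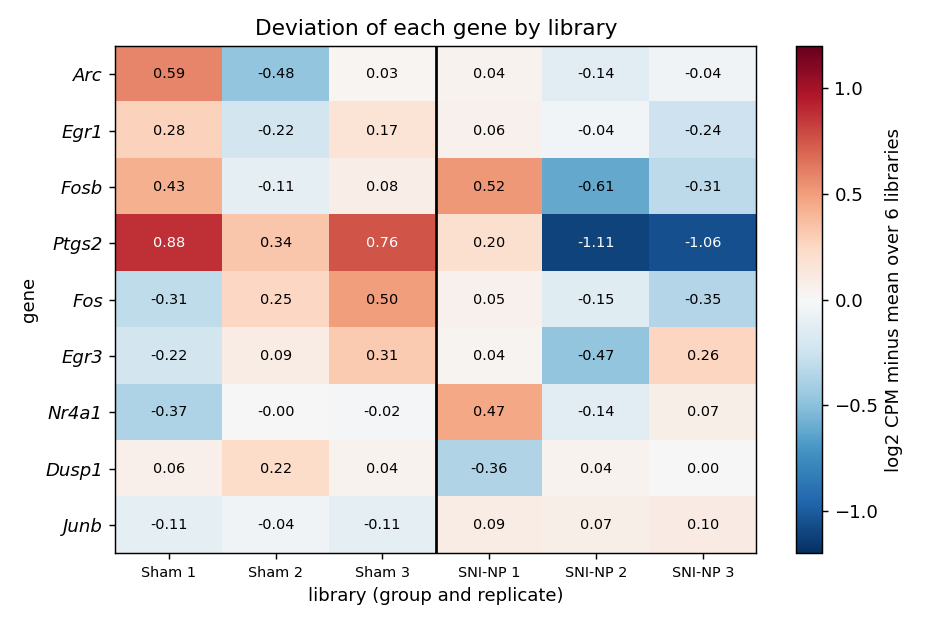
Deviation of log2 CPM (with a prior count of 2) from the mean of each gene over the 6 libraries (columns), for the 9 genes (rows); red is above and blue below the mean. *Ptgs2* has the widest range, from 0.88 in Sham replicate 1 to -1.11 in SNI-NP replicate 2, and the signs within a column differ between genes.

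The 5 other genes whose log2 CPM lay closest to the mean standardised profile of the 9 genes were *Lpar4*, *Kctd15*, *Nhs*, *Trio* and *Col7a1*, with a Pearson correlation of 0.98 to 0.99 over 6 libraries. They were picked as the extremes over all genes tested, so this likeness is a description only.

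Of 6 tested relatives within the same families, 2 had a higher level at an unadjusted p under 0.05, both in the Jun family, against 4.91% of all genes. *Jund* was at 54.6, 50.3 and 64.8 CPM in sham and 67.9, 83.5 and 81.3 in SNI-NP rats. The log2 difference was 0.46 (SE 0.13, unadjusted p = 0.0107, edgeR adjusted p = 0.406). *Jun* was at 73.2, 82.0 and 80.8 CPM in sham and 91.5, 97.4 and 103.2 in SNI-NP rats. The log2 difference was 0.31 (SE 0.098, unadjusted p = 0.0155, edgeR adjusted p = 0.436). In both genes every SNI-NP library lay above every sham library, as for *Junb* and for 10.4% of all genes. In leave-one-out fits, the unadjusted p stayed under 0.05 in 6 of 6 for *Jund* and in 3 of 6 for *Jun*. Per length, transcripts of the Jun genes were more abundant than those of the Fos genes. Means were 39.9 FPKM for *Jund*, 28.5 for *Jun* and 16.4 for *Junb*. They were 7.07 for *Fos*, 2.03 for *Fosl1*, 0.827 for *Fosb* and 0.685 for *Fosl2*. These are RNA levels, and AP-1 protein was not measured in these libraries. *Fosl1* had a log2 difference of -0.20 (95% interval -0.86 to 0.46). *Egr2* had 0.22 (-0.31 to 0.75), *Nr4a2* had -0.15 (-0.63 to 0.32) and *Nr4a3* had -0.16 (-0.74 to 0.43). *Fosl2*, *Egr4* and the neuronal factor *Npas4* had too few counts to be tested, with at most 22, 7 and 4 in a library.

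Over the wider list of 56 early response genes, which includes these relatives, 53 were tested and 0 had an adjusted p under 0.05 by edgeR. At an unadjusted p under 0.05, 5 were higher and 1 was lower in SNI-NP rats, against 4.91% and 5.94% of all genes, and the median log2 fold change was 0.027. DESeq2 gave no adjusted p for *Dusp2* and *Inhba*, which are among the 53. By DESeq2, 2 of the 53 had an adjusted p under 0.05, against 1.55% of all genes with an adjusted value. These were *Atf3*, a stress-induced partner of Jun, and *Nfil3*, a leucine zipper repressor.

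*Atf3* was at 12.9, 14.8 and 18.4 CPM in sham and 34.3, 40.3 and 38.6 in SNI-NP rats. The log2 difference of 1.29 (SE 0.16) was the largest of the list. Its adjusted p was 0.117 in edgeR against 1.43e-08 in DESeq2. *Nfil3* was the lower gene, at 10.8, 9.75 and 13.04 CPM in sham and 6.67, 6.28 and 6.84 in SNI-NP rats. The log2 difference was -0.76 (SE 0.17, adjusted p = 0.329 by edgeR and 0.0267 by DESeq2). *Gadd45g*, a growth arrest and DNA damage gene, had 0.58 (SE 0.20), and *Ier3*, an early response gene linked to cell survival, had 0.42 (SE 0.16), both without overlap and with edgeR adjusted p-values of 0.436 and 0.440. *Homer1*, a postsynaptic scaffold gene, had -0.61 (SE 0.29, unadjusted p = 0.0754), and *Plk2*, an activity-induced kinase gene, 0.25 (SE 0.13, unadjusted p = 0.0908); neither passed.

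Of the regulators upstream of immediate early transcription, 22 of 23 listed genes were tested. Of these, 3 were higher and 0 lower in SNI-NP rats at an unadjusted p under 0.05, again against 4.91% and 5.94% of all genes, and 0 had an adjusted p under 0.05 by edgeR or DESeq2. *Srf*, which encodes the factor that binds the serum response element, was at 36.3, 36.4 and 41.4 CPM in sham and 48.8, 45.5 and 43.8 in SNI-NP rats, a log2 difference of 0.28 (SE 0.11). *Crtc2*, a coactivator of CREB, had 0.29 (SE 0.095), and *Mapk3*, which encodes the kinase ERK1, had 0.28 (SE 0.11). *Map2k2*, which encodes a kinase that activates ERK, had 0.22 (SE 0.097, unadjusted p = 0.0544). Every SNI-NP library lay above every sham library in these 4 genes and in 5 of the 22 tested (*Mapk14*, a p38 kinase gene, is the other one), against 10.4% of all genes. Leave-one-out fits kept an unadjusted p under 0.05 in 1 of 6 for *Srf*, 1 of 6 for *Mapk3* and 2 of 6 for *Crtc2*.

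**Figure D4:**
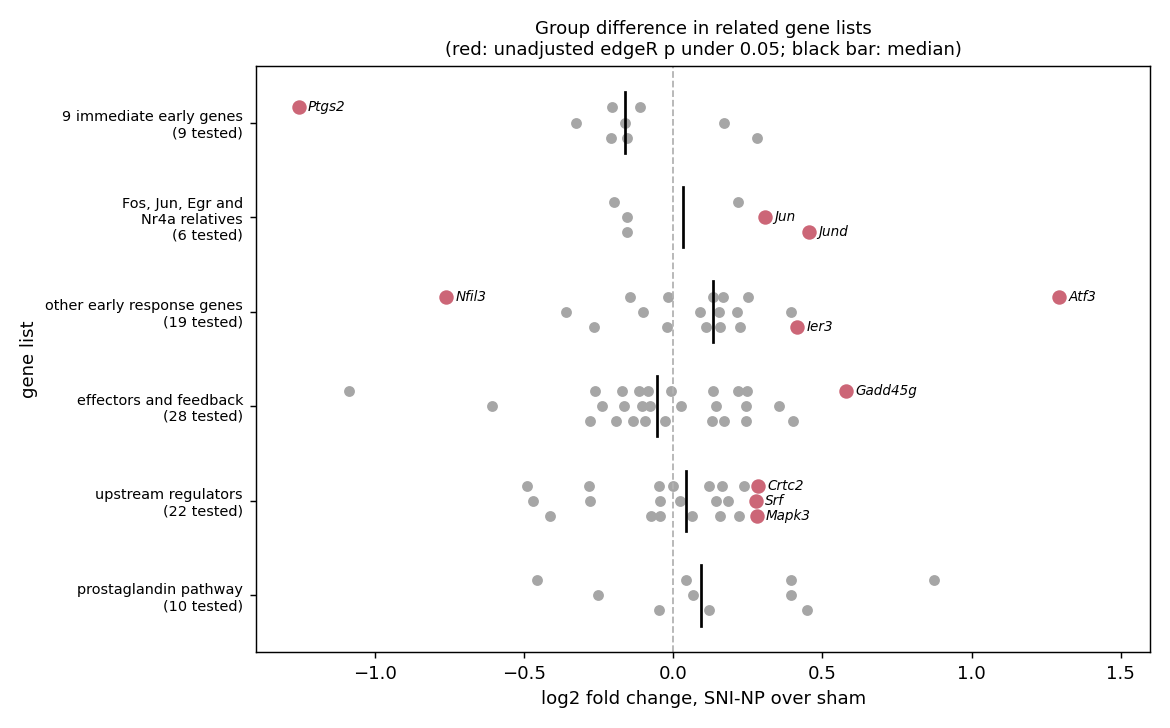
Log2 fold change of SNI-NP over sham (horizontal axis) of each tested gene in 6 lists (rows), with the list median as a black bar and genes with an unadjusted edgeR p under 0.05 in red with their symbols. The 9 immediate early genes have a median of -0.16, and *Ptgs2* lies apart from the rest of them.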

How the data were processed

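Total RNA from spinal cord was sequenced in 3 sham and 3 SNI-NP libraries, grouped by the sample labels. Reads were mapped to the release named Rat6, and unique sequences were kept. The submitters' processing notes list FastQC, STAR and HTSeq, without versions. The annotation release and the use of strand are not given in the sources used here. For each gene the authors deposited 2 values, an estimated count that was not normalized and an FPKM value scaled by gene length and library total. Between 1316 and 1386 genes per library had counts that were not whole, and how these arose is not given in the sources used here. The counts of the 9 genes were whole.

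Estimated counts were rounded and compared with edgeR version 4.0.16 (R version 4.3.3), after filterByExpr and TMM scaling, in a quasi-likelihood model that held the group and no other term. P-values were adjusted over 14426 genes. The 95% intervals use the standard error derived from the quasi-likelihood F statistic. FPKM served only to compare levels between genes and for limma version 3.58.1 as an alternative. DESeq2 version 1.42.0 was another alternative, as the study used it. The tests were checked on simulated counts. The genes and lists, including the cell type, heat shock and glucocorticoid lists, were chosen with earlier results of these data known. Named genes were the 9 genes, list genes with an unadjusted p under 0.05, the 8 (wider list), 4 (upstream) and 4 (prostaglandin) genes with the smallest p, and the 5 of most similar profile. *Ptgs1*, family relatives, the neuronal genes, *Scn9a* and the glucocorticoid genes were named after their values were seen.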

Additional observations from a re-analysis of the deposited data

How the results depend on the processing

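None of the 9 genes had an adjusted p under 0.05 in any of the 11 alternative settings or the 6 fits that left out 1 library. With 3 libraries per group, differences of the size seen for *Fos*, *Fosb*, *Egr3* and *Arc* could not be told from 0. The number of genes with an unadjusted p under 0.05 was 1 (*Ptgs2*) in the 11 settings and 0 to 1 when 1 library was left out; it was 0 without SNI-NP replicate 2 or 3, and the gene was *Fos* without Sham replicate 1. *Ptgs2* was lower in all of them, between -1.86 and -0.47, the latter with 1 added to FPKM before the log. The median log2 fold change of the 9 genes was -0.20 to -0.11 over the settings and -0.29 to -0.072 with 1 library left out (-0.072 without Sham replicate 1, -0.29 without Sham replicate 2). With 1 library left out, *Arc* ranged from -0.38 to 0.15, *Fosb* from -0.63 to 0.016 and *Egr3* from -0.32 to 0.077; the positive value came without Sham replicate 1 for *Arc* and without SNI-NP replicate 2 for the other two. The cause was not tested.

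Over all genes, 0 were called by edgeR, 211 by DESeq2, 2 by limma on FPKM with either pseudocount, and 0 to 222 with 1 library left out (222 without SNI-NP replicate 1, 2 without Sham replicate 2). At an unadjusted p under 0.05 there were 1565 genes, and 908 to 2134 with 1 library left out, with 908 without Sham replicate 1, 917 without SNI-NP replicate 3 and 1019 without Sham replicate 3. For the wider list, DESeq2 called 2 genes and leaving out 1 library gave 0 to 1 (1 without SNI-NP replicate 1); at an unadjusted p it held 6 genes, and 3 to 9 (3 without SNI-NP replicate 3).

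Same-numbered libraries did not all deviate together, with correlations across genes of 0.21, -0.14 and 0.054 for replicates 1, 2 and 3. Both replicate 1 libraries were most similar to their own number, and no library of replicates 2 and 3 was. The highest correlation was 0.22, between Sham replicate 3 and SNI-NP replicate 2. The numbers were therefore not taken as pairs. With the replicate number as a block, 1 of the 9 genes had an unadjusted p under 0.05 and 1319 of all genes did; *Ptgs2* had a log2 fold change of -1.36, and -1.24 with length offsets added.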
